A study of Mus musculus with 65 samples.

Results

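The colony-stimulating factor 1 receptor gene Csf1r, the target of the drug used in the study, was followed through the adult mouse retina together with the genes of its ligands and of related receptors. The 8 genes were taken by symbol from the deposited count table of 50686 genes, of which 50376 carry a symbol. They are Csf1r, the ligand genes Csf1 and Il34, the receptor kinase genes Kit and Flt3, and the Csf2 receptor chain genes Csf2ra, Csf2rb and Csf2rb2. All 8 were measured in all 65 mice and passed the filter on low counts in every comparison.

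Whole retinas of adult C57BL/6J mice were sequenced in 16 groups, with 1 mouse per library. CD mice (control diet, labelled vehicle, n = 5) were compared with mice fed PLX5622, an inhibitor of the CSF1R kinase mixed into the diet, for 2, 5, 7, 10, 14 or 21 days (DEP2 to DEP21, n = 4 each but 3 in DEP5). Repopulation mice returned to control diet after 14 days of PLX5622 and were taken 3, 5, 7, 10, 14, 21 or 60 days later (REPOP3 to REPOP60, n = 4 each but 6 in REPOP7). The label of 1 CD mouse (replicate 2M) carries the tag 2M, as do those of the REPOP60 mice. The labels used here do not say what the tag means for CD, and this mouse was kept in CD. Lipopolysaccharide (LPS), the bacterial cell wall component, was given systemically to control mice (LPSCD, labelled LPS + vehicle, n = 3) and to PLX5622 mice (LPSREPOP, labelled PLX5622 + LPS, n = 4). The labels give neither a return to control diet nor its length for the last group, and the name LPSREPOP follows the study's methods, which describe repopulated retinas under LPS. PLX5622 in the diet reaches CSF1R-dependent cells outside the retina too.

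CSF1R is a receptor tyrosine kinase of microglia and other macrophages, and signalling through it keeps adult microglia alive. Its ligands CSF1 and IL-34 share no sequence family but bind the same receptor, and neurons are a known source of IL-34 in the brain and the retina. KIT, the receptor of stem cell factor, and FLT3, the receptor of FLT3 ligand, are close relatives of CSF1R in the same kinase class and are known for their roles in blood progenitor cells. The receptor of CSF2 (GM-CSF) is of another type: an alpha chain, CSF2RA, binds the ligand, and a beta chain, CSF2RB, signals. Mice carry a further beta chain gene, Csf2rb2, whose product serves IL-3.

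Libraries held between 5106429 and 8760443 gene counts (median 7944665), with the shallowest in REPOP21 and all others at 7367693 or more, so a level of 3 counts lay between 0.342 and 0.587 CPM (counts scaled to a common library total) for counting error alone, on plain library totals. All other CPM values use library totals scaled by TMM, edgeR's normalization. Library titles ended in RE in 39 mice and in re in 26 mice, and the first principal component, with 55.9% of the variance over 12346 genes, separated the suffixes. CD held 3 RE and 2 re mice, REPOP7 held 3 of each, DEP5 was all RE, REPOP60 and both LPS groups were all re, and every other group held 1 re mouse. The suffix was therefore a term of each fit whose mice carried both. A gene was called at an FDR (Benjamini-Hochberg adjusted p of edgeR's quasi-likelihood test over all genes tested) under 0.01 with an absolute log2 fold change above 1. In the retina as a whole, fewer cells that express a gene and less RNA per cell cannot be told apart.

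Csf1r (ENSMUSG00000024621, mm10 chr18:61100598-61132149, plus strand) was lower in the PLX5622 mice than in CD mice at every day of depletion. CD mice had 150, 134, 106, 166 and 129 counts (replicates 1, 2, 3, 4 and 2M), or 17.1 ± 2.45 CPM (SD, n = 5). The 23 depletion mice had between 52 and 98 counts, or 9.05 ± 1.48 CPM (SD, n = 23), which is 52.9% of the CD mean. No depletion mouse reached the lowest CD mouse, with 11.7 CPM as the highest depletion level and 13.7 CPM as the lowest in CD.

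Averaged over the 6 depletion groups, the log2 fold change of Csf1r on counts was -0.88 ± 0.10 (SE, edgeR FDR = 1.1e-07). After 2 days (DEP2) it was already -0.84 (FDR = 0.000499), and DEP5, with 3 mice, gave -0.80 (FDR = 0.045). The largest was -0.95 in DEP7 (FDR = 4.88e-05), followed by -0.93 in DEP10 (FDR = 0.000579), -0.92 for DEP14 (FDR = 0.00519) and -0.87 for DEP21 (FDR = 0.000972). With the RE mice alone the FDR was 0.174 in DEP2, 0.169 in DEP5, 0.0965 for DEP14 and 0.12 for DEP21, and with no suffix term it was 0.059 in DEP2 and 0.0661 for DEP14, while the average kept an FDR of 5.58e-05 or less in the 8 other fits of the counts. The values at 2 and at 21 days of the diet differed by less than their SE of 0.13, and all stayed short of the 2-fold threshold, so Csf1r was not called in the counts. Within the RE mice alone CD ranged from 13.7 to 19.5 CPM and depletion from 6.83 to 11.5 CPM, and within the re mice CD had 17.0 and 19.4 CPM and depletion between 8.63 and 11.7 CPM. None of the 8 genes was called in these comparisons, beside 0.155% of the genes tested for the average, and, from DEP2 to DEP21 in order of time, 0.0501%, 0.0345%, 0.0625%, 0.0585%, 0.0419% and 0.0884% by day.

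The deposited FPKM values, which scale by transcript length, gave a much deeper loss of Csf1r. CD mice had 1.37, 1.40, 1.30, 1.81 and 1.5 FPKM. The 23 depletion mice had between 0 and 0.145 FPKM, with 1 DEP14 mouse listed at 0 and a mean of 0.0395 FPKM, or 2.68% of the CD mean. On log2(FPKM + 0.1) Csf1r fell by 3.53 ± 0.11 in the depletion average (SE, limma FDR = 2.46e-15) and was called in all 6 depletion groups. Over all genes tested, 0.11% were called on this scale for the average. The same mice thus stood at 52.9% of CD in counts and at 2.68% in FPKM.

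The same pair of measures was set side by side for microglial reference genes. In the depletion mice the CPM mean of Cx3cr1, the fractalkine receptor gene of microglia, was 1.22% of CD, that of the microglial surface gene Tmem119 was 0.63% and that of the purinergic receptor gene P2ry12 was 12.6%. The summed level of 20 microglia genes lay between 62.2 and 80.1 CPM in CD and between 18.3 and 26.3 CPM in depletion, with Siglech at 0 in all depletion mice. In counts Csf1r, at 52.9% of CD, lay above all 3 of these genes.

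**Figure D1:**
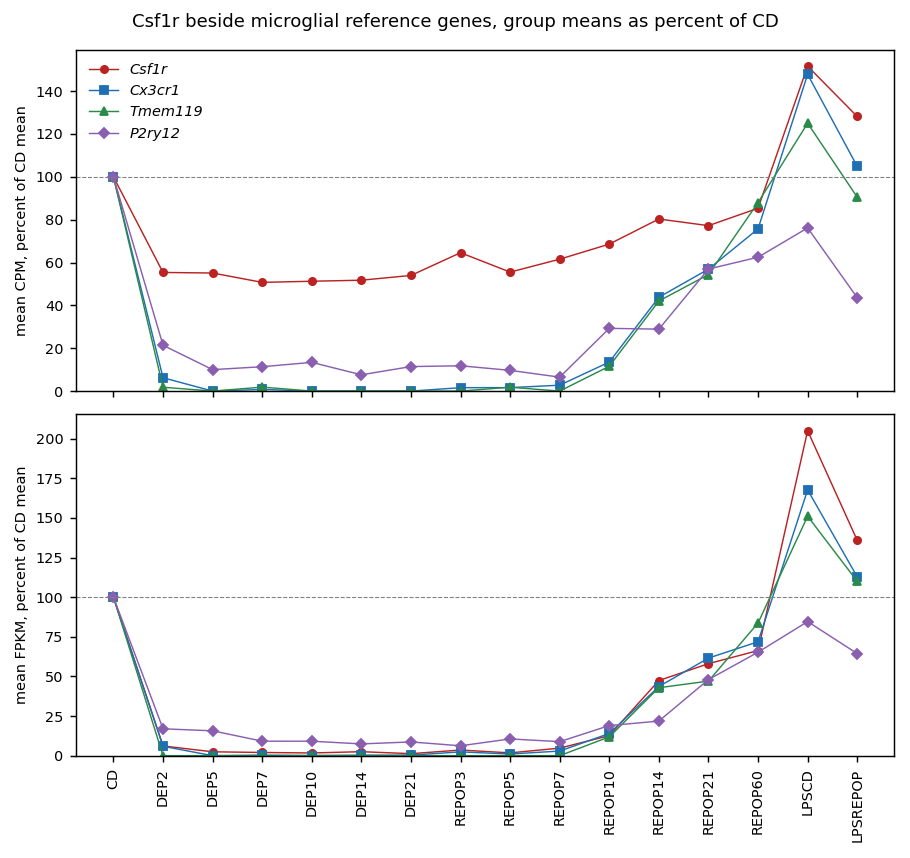
Group means of Csf1r, Cx3cr1, Tmem119 and P2ry12 as percent of the CD mean, from the gene counts in CPM (upper panel) and from the deposited FPKM (lower panel), over the 16 groups. In counts Csf1r stays near 52.9% of CD through depletion while Cx3cr1 and Tmem119 are near 0, and in FPKM all of Csf1r, Cx3cr1 and Tmem119 are near 0 through REPOP7.

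The last 873 exonic bases of Csf1r, 15.1% of its 5774, lie inside the exons of Hmgxb3, a gene of the opposite strand (mm10 chr18:61131277-61177050, minus strand). Of the 5776 possible 50-base reads of Csf1r transcripts, 824 (14.3%) also occur in Hmgxb3 in the opposite sense, and none of the rest occurs in another gene. The strand setting of the counting is not given in the sources used here, so without strand the reads of both genes cannot be told apart there. Hmgxb3, which was looked at after its overlap was seen, had 46.9 ± 7.23 CPM in CD (SD, n = 5) and 42.4 ± 6.65 CPM in depletion (SD, n = 23), with a log2 fold change of -0.075 ± 0.064 (SE, edgeR FDR = 0.903).

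When FPKM was multiplied by the 5.774 exonic kilobases of Csf1r to put it on a per-gene scale, the CPM exceeded it in every mouse. The excess averaged 8.58 in CD, 8.46 in LPSCD and between 8.50 and 9.21 in the 6 depletion groups. Over all 65 mice it was 9.29 ± 1.65 (SD), with group means between 8.25 and 10.7 and single mice between 6.15 and 13.1. The part of overlapping reads in this excess was not tested. The length and the library total behind each FPKM are the authors' own, so the scales match only in part, and for Hmgxb3 the same product averaged 94.6 in CD beside 46.9 CPM. The size of the Csf1r excess and its likeness between groups therefore apply to this scale only.

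**Figure D2:**
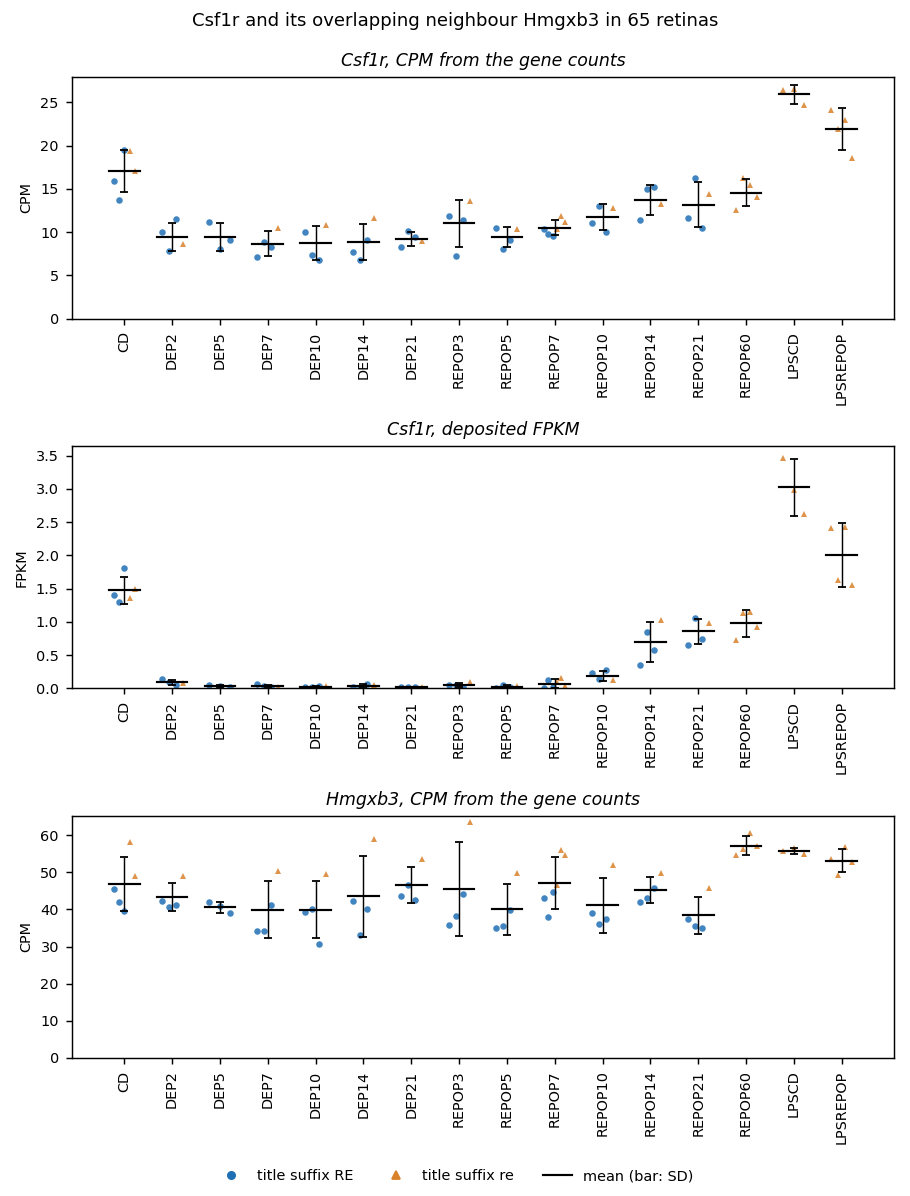
Csf1r in CPM (top), Csf1r in deposited FPKM (middle) and the overlapping gene Hmgxb3 in CPM (bottom) for each of 65 mice by group, with mean and SD and with circles for the title suffix RE and triangles for re. Csf1r drops to between 6.83 and 11.7 CPM and to at most 0.145 FPKM in depletion, is highest in LPSCD, and Hmgxb3 is higher in the re mice.

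After the return to control diet, Csf1r stayed low for a week and was higher from the second week on. The 14 mice of REPOP3, REPOP5 and REPOP7 averaged 10.4 CPM (60.7% of CD) and 0.0524 FPKM (3.55% of CD), with 2 mice listed at 0 FPKM. REPOP10 mice had 12.9, 11.0, 13 and 9.97 CPM and 0.120, 0.223, 0.135 and 0.268 FPKM. The 12 mice of REPOP14, REPOP21 and REPOP60 averaged 13.8 CPM (80.9% of CD) and 0.845 FPKM (57.2% of CD). Each of these 12 mice had at least 0.350 FPKM, above every mouse of REPOP10 and of the earlier groups.

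Averaged over REPOP3, REPOP5 and REPOP7, Csf1r differed from CD by -0.72 ± 0.10 on the log2 scale of counts (SE, edgeR FDR = 0.000168), although the RE mice alone gave an FDR of 0.064. By day it was -0.60 in REPOP3 (FDR = 0.597), -0.83 in REPOP5 (FDR = 0.00668, but 0.255 in the RE mice alone), -0.72 in REPOP7 (FDR = 0.0017, but 0.878 in the re mice alone) and -0.53 in REPOP10 (FDR = 0.0558). On log2(FPKM + 0.1) Csf1r fell by 3.43 ± 0.18 in the early average (SE, limma FDR = 2.33e-08) and was called there and in each of REPOP3, REPOP5 and REPOP7, and REPOP10 gave -2.52 ± 0.18 with an FDR of 0.0177. The genes called were 0.0992% in counts and 0.0873% in FPKM for the early average, and in counts 0.0377% in REPOP3, 0.0504% in REPOP5, 0.0678% in REPOP7 and 0.0838% in REPOP10.

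In the later groups the difference from CD no longer passed the test. The log2 fold change of Csf1r on counts was -0.31 in REPOP14 (FDR = 0.995), -0.37 in REPOP21 (FDR = 0.14) and -0.32 in REPOP60 (FDR = 1), with an average of -0.32 ± 0.10 (SE, edgeR FDR = 0.439). All REPOP60 mice are re, so with the suffix term the fold of REPOP60 against CD rests on the 2 re mice of CD (replicates 1 and 2M). In CPM each of these groups overlapped CD, and in FPKM the highest mouse of the 3 groups, at 1.14 FPKM, stayed below the lowest CD mouse at 1.30 FPKM. The FPKM average was -0.81 ± 0.18 (SE, limma FDR = 0.603). In edgeR no gene at all was called in REPOP14 (0.0%), REPOP60 (0.0%) or the average (0.0%), where 818, 779 and 2399 genes had an unadjusted p under 0.05 and the alternative fits called up to 12, 10 and 14 genes, and REPOP21 had 0.0548% called. In FPKM, limma called 0.0% for the late average.

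Set directly against the depletion groups, late repopulation had more Csf1r by 0.58 ± 0.09 on the log2 scale of counts (SE, edgeR FDR = 0.000368). With the replicate number as a block the FDR was 0.0446. On log2(FPKM + 0.1) the difference was 2.79 ± 0.13 (SE, limma FDR = 2.66e-10) and was called, as were 0.112% of all genes in counts and 0.075% in FPKM. Over the same mice the microglia list summed to between 45.4 and 60.5 CPM in late repopulation, and 14 of its 20 genes were called higher than in depletion.

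The order of the 16 group means of Csf1r in CPM ran from DEP7, DEP10, DEP14, DEP21, DEP5, DEP2 and REPOP5 through REPOP7, REPOP3, REPOP10, REPOP21, REPOP14 and REPOP60 to CD, LPSREPOP and LPSCD. Of the 15 steps between neighbours in that order, 4 exceeded the pooled SD: REPOP5 to REPOP7, REPOP60 to CD, CD to LPSREPOP and LPSREPOP to LPSCD. In FPKM 5 steps did, which set apart 9 groups with almost no Csf1r (all depletion groups, REPOP3, REPOP5 and REPOP7), then REPOP10, then REPOP14, REPOP21 and REPOP60, and then CD, LPSREPOP and LPSCD singly.

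After LPS, Csf1r was higher than in CD. LPSCD mice had 205, 209 and 197 counts, or 26.5, 26.6 and 24.7 CPM, and all 3 lay above every CD mouse. In FPKM they had 3.47, 2.99 and 2.62, which is 205% of the CD mean. The log2 fold change on counts was 0.51 ± 0.16 (SE, edgeR FDR = 0.305). Over the other fits of the same counts the FDR was as low as 0.0197, and it was 0.687 in the re mice alone. The FPKM difference was 1.02 ± 0.19 (SE, limma FDR = 0.208). All LPSCD mice are re, so with the suffix term the fold of LPSCD against CD rests on the 2 re mice of CD alone (replicates 1 and 2M). This holds for each gene in this comparison.

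LPSREPOP mice had 184, 170, 182 and 145 counts of Csf1r (21.9 ± 2.41 CPM, SD, n = 4), and overlapped CD in CPM and in FPKM. Against the unchallenged REPOP60 mice, which had 96, 125, 119 and 106 counts, Csf1r was higher by 0.58 ± 0.11 on the log2 scale (SE, edgeR FDR = 0.00175), without overlap between the groups. Without REPOP60 replicate 4 the FDR was 0.0337. Against LPSCD the difference was -0.24 ± 0.12 (SE, FDR = 0.617), and the change under LPS in repopulated retinas minus that in control retinas was 0.08 ± 0.19 (SE, FDR = 0.991). In this last value CD again stands on its 2 re mice alone.

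The summed level of the microglia list was from 122 to 139 CPM in LPSCD, above CD, and from 68.7 to 114 CPM in LPSREPOP, which overlaps CD, and its genes lay on both sides of CD. Cx3cr1 was at 148% of the CD mean in LPSCD and at 105% in LPSREPOP, Tmem119 at 125% and 90.5%, and P2ry12 at 76.1% and 43.6%. Markers of monocytes and perivascular macrophages summed to between 11.6 and 13 CPM in LPSCD and between 12 and 17.5 CPM in CD. Their part, and that of neutrophil genes (0.387 to 4.90 CPM in CD, 2.16 to 3.87 in LPSCD and 1.54 to 11.9 in LPSREPOP), in the Csf1r level was not tested.

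No gene was called in edgeR for LPSCD against CD (0.0% of 23606 tested, with 2486 at an unadjusted p under 0.05), for LPSREPOP against LPSCD (0.0%, with 1973) or for the interaction (0.0%, with 1519), while other fits called up to 237, 18 and 33 genes. For LPSREPOP against REPOP60, 0.437% were called. With limma on FPKM the shares were 0.0508%, 0.0408%, 0.00778% and 0.0201% for LPSCD against CD, LPSREPOP against LPSCD, the interaction and LPSREPOP against REPOP60. None of the 8 genes was called in any of these LPS comparisons.

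Both ligand genes stayed near their CD level while the receptor was lost and returned. Csf1 (ENSMUSG00000014599, mm10 chr3:107741048-107760469, minus strand) had 55, 64, 51, 75 and 55 counts in CD, or 7.47 ± 0.84 CPM (SD, n = 5). The 23 depletion mice lay between 4.69 and 9.86 CPM, on both sides of CD, with a log2 fold change of -0.14 ± 0.12 (SE, edgeR FDR = 0.91). The average over early repopulation was -0.11 ± 0.10 (FDR = 0.873) and that over late repopulation -0.06 ± 0.13 (FDR = 0.95). In FPKM, depletion mice were at 97.2% of the CD mean.

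Under LPS, Csf1 counts were high in some mice and not in others. LPSCD mice had 60, 116 and 118 counts, so replicates 2 and 3 lay above every mouse without LPS in CPM and replicate 1 lay within CD. In FPKM they had 1.70, 3.77 and 3.32, so that replicate 1 was just above the highest CD mouse at 1.65, and the mean was 193% of CD. On the log2 scale Csf1 differed from CD by 0.79 ± 0.27 (SE, edgeR FDR = 0.315), and without LPSCD replicate 1 it was 1.03 with an FDR of 0.00486, which is a call. With the replicate number as a block it was 0.11, but in that fit the fold compares only replicate 1 of each group. LPSREPOP mice had 48, 95, 123 and 50 counts, and replicates 2 and 3 were again above every mouse without LPS, while replicates 1 and 4, at 6.29 and 6.4 CPM, were just below the lowest CD mouse at 6.57. Against REPOP60 the log2 fold change was 0.55 ± 0.23 (SE, FDR = 0.259), and the interaction was -0.24 ± 0.40 (SE, FDR = 0.96).

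Il34 (ENSMUSG00000031750, mm10 chr8:110741829-110805924, minus strand) did not pass the test in any comparison. CD mice had 43, 43, 27, 46 and 40 counts, or 4.96 ± 0.84 CPM (SD, n = 5). The 23 depletion mice spanned 2.76 to 6.66 CPM, with a log2 fold change of -0.13 ± 0.13 (SE, edgeR FDR = 0.926), and early and late repopulation gave 0.11 ± 0.13 (FDR = 0.899) and 0.03 ± 0.14 (FDR = 0.997). LPSCD mice had 51, 46 and 40 counts, with a log2 fold change of 0.10 ± 0.25 (FDR = 0.918), and LPSREPOP mice had 44, 41, 47 and 41. In FPKM all 3 LPSCD mice lay above CD (6.65 on average beside 5.12, 130% of CD, with a difference of 0.28 ± 0.16 on the log2 scale, SE, limma FDR = 0.553), and DEP5 and DEP21 lay below CD. Per length Il34 was the more abundant ligand message, with 4.87 FPKM on average over the 65 mice beside 1.62 FPKM for Csf1. Of its 1999 possible 50-base reads, 26 also occur in Gm15895 on the opposite strand.

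**Figure D3:**
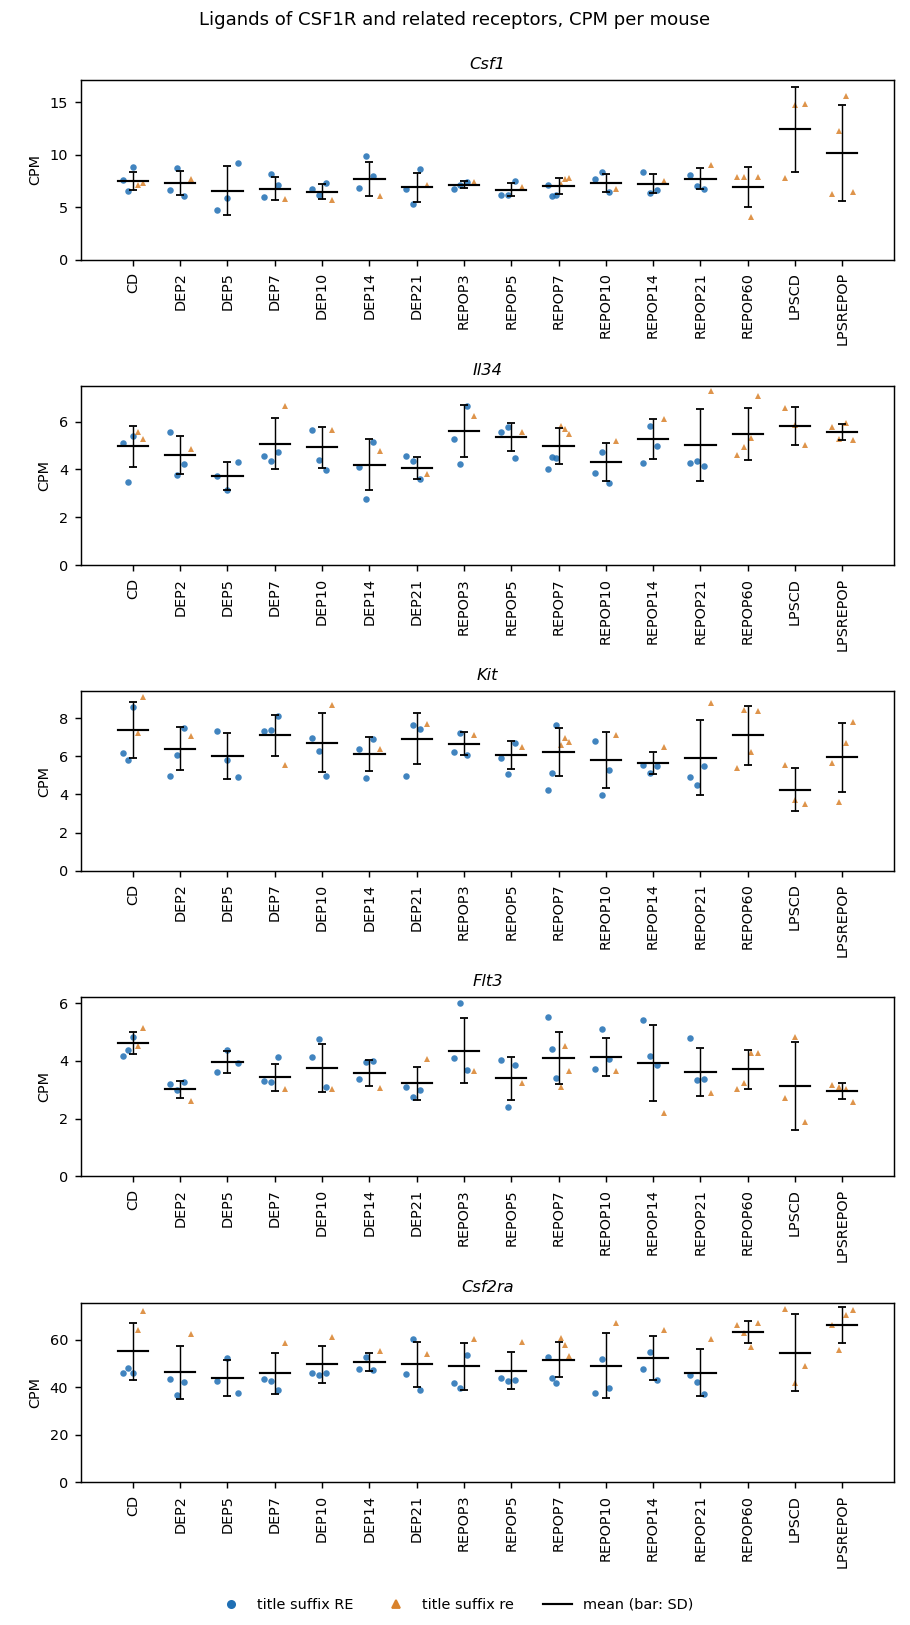
Csf1, Il34, Kit, Flt3 and Csf2ra in CPM for each of 65 mice by group, with mean and SD and with circles for the title suffix RE and triangles for re. Csf1 is split within both LPS groups, Kit is lowest in LPSCD, and Csf2ra is higher in the re mice of most groups.

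Kit and Flt3, the relatives of CSF1R, kept most of their message under the inhibitor. Kit (ENSMUSG00000005672, mm10 chr5:75574916-75656722, plus strand) had 56, 52, 45, 73 and 69 counts in CD, or 7.38 ± 1.45 CPM (SD, n = 5). In depletion it spanned 4.86 to 8.69 CPM, with a log2 fold change of -0.14 ± 0.12 (SE, edgeR FDR = 0.907), and late repopulation gave -0.30 ± 0.13 (FDR = 0.469). In LPSCD it had 43, 29 and 28 counts, and its mean of 4.25 CPM was the lowest of all 16 groups. Against CD its log2 fold change was -0.94 ± 0.26 (SE, FDR = 0.249), and 1 fit of all 16 groups together gave an FDR of 0.00268. The replicate block gave -0.39, but there the fold compares only replicate 1 of each group.

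LPSREPOP mice had 43, 28, 53 and 61 counts of Kit, which spans the LPSCD and the CD range. Against REPOP60 the log2 fold change was -0.26 ± 0.20 (SE, edgeR FDR = 0.584), and the interaction was 0.69 ± 0.35 (SE, FDR = 0.804). KIT is also a mast cell receptor. All 6 mast cell genes of the list were at 0 in every CD and LPSCD mouse, and the part of mast cells in the Kit level was not tested.

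Flt3 (ENSMUSG00000042817, mm10 chr5:147330741-147400489, minus strand) was narrow in CD, with 35, 35, 34, 41 and 39 counts (4.60 ± 0.39 CPM, SD, n = 5). The 23 depletion mice averaged 3.47 ± 0.57 CPM, with 2.62 CPM as the lowest and 4.77 as the highest, and so overlapped CD as a whole. By group, all mice of DEP2, DEP7, DEP14 and DEP21 lay below CD in CPM, as did those of REPOP5 and LPSREPOP, while each of these groups overlapped CD in FPKM. The share of all genes that separate from CD in this way was not counted, so no result is read from it. Against CD the depletion average gave a log2 fold change of -0.41 ± 0.12 (SE, edgeR FDR = 0.392). In FPKM the depletion mean was 93.7% of CD, with a difference of -0.10 ± 0.15 (SE, limma FDR = 0.975), so the lower count was not seen on that scale. LPSREPOP mice had 24, 24, 24 and 20 counts, and LPSCD mice had 21, 38 and 15.

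**Figure D4:**
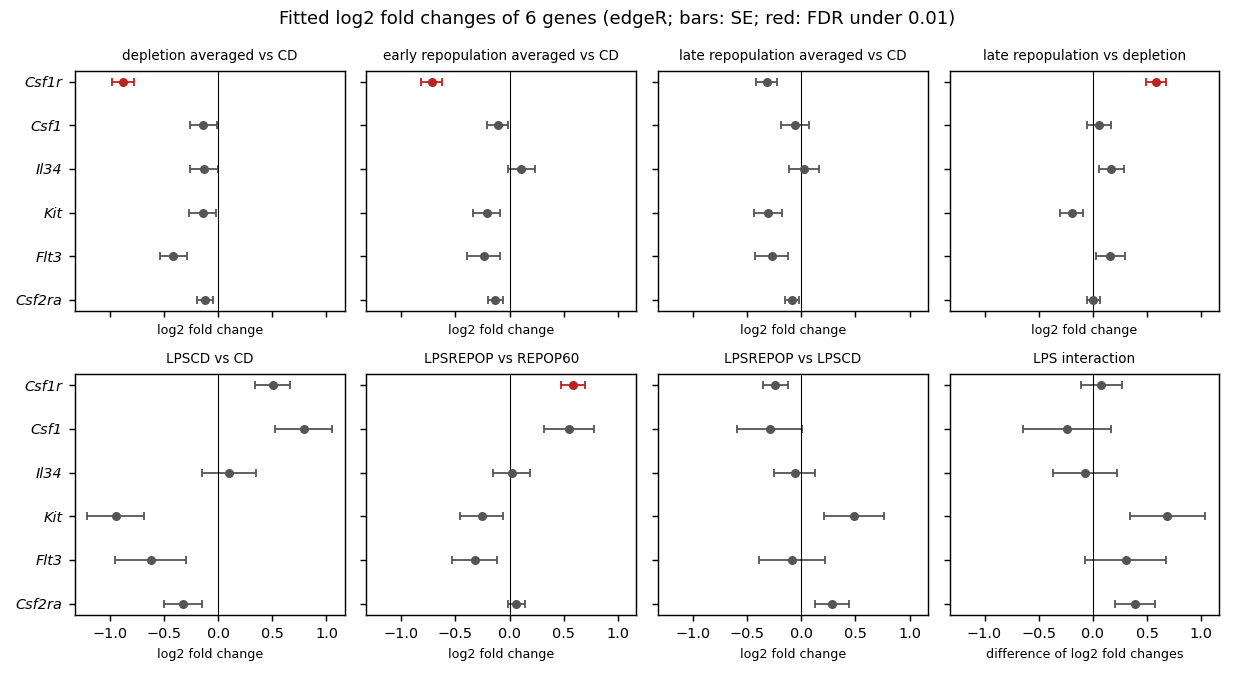
Fitted log2 fold changes of Csf1r, Csf1, Il34, Kit, Flt3 and Csf2ra in 8 comparisons (edgeR on counts, bars are SE, red marks an FDR under 0.01), with the last panel as a difference of log2 fold changes. Csf1r alone is red, in the depletion average at -0.88, the early average at -0.72, late repopulation against depletion at 0.58 and LPSREPOP against REPOP60 at 0.58.

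Csf2ra (ENSMUSG00000059326, mm10 chr19:61223957-61228429, minus strand), the alpha chain gene, was the most abundant of the 8 per length, with a mean of 22.5 FPKM over the 65 mice. CD mice had 496, 389, 372, 392 and 546 counts, and the 2 high values belonged to the re mice. Over the mice without LPS, the 19 re mice had 61.3 ± 4.91 CPM and the 39 RE mice 44.9 ± 5.36 CPM (SD). With the suffix in the fit, the log2 fold change was -0.12 ± 0.07 in depletion (SE, edgeR FDR = 0.874), -0.13 ± 0.07 in early repopulation (FDR = 0.849) and -0.08 ± 0.06 in late repopulation (FDR = 0.708).

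LPSCD mice had 565, 329 and 390 counts of Csf2ra, and LPSREPOP mice had 506, 432, 558 and 567. LPSCD replicate 1, at 72.9 CPM, lay near the re mice of CD, and replicates 2 and 3, at 41.9 and 48.9 CPM, lay near its RE mice, although all 3 carry the suffix re. The log2 fold change for LPSCD was -0.32 ± 0.17 (SE, edgeR FDR = 0.542), and without replicate 1 the FDR was 0.00731 at a fold below the threshold. With the replicate block the value was 0.18, but there the fold compares only replicate 1 of each group. The interaction was 0.39 ± 0.18 (SE, FDR = 0.804).

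Csf2rb (ENSMUSG00000071713, mm10 chr15:78325752-78353847, plus strand) and Csf2rb2 (ENSMUSG00000071714, mm10 chr15:78282507-78305721, minus strand), the beta chain genes, are near-identical neighbours. Their longest reading frames, of 2691 and 2637 bases, agree at 95.2% of 2631 aligned bases, and 687 of their possible 50-base reads are shared, 26.0% of those of Csf2rb and 26.5% of those of Csf2rb2. Over all transcripts 892 windows are shared (12.3% and 18.4%). Reads from these stretches cannot be given to either copy. How the counting treated them is not given in the sources used here, so they may be missing from both genes or in part assigned to the wrong one. The 100 coding bases with the most differences between the copies, bases 314 to 413 of Csf2rb and 317 to 416 of Csf2rb2 (mm10 transcripts, 5′ to 3′), show where reads can be told apart, with the 17 differing bases in capitals.
Csf2rb: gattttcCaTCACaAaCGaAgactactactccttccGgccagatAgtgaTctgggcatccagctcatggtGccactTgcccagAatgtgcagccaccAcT
Csf2rb2: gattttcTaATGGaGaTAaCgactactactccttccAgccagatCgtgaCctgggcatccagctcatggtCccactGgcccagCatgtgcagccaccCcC
The longest stretch without any difference, 242 coding bases at 2083 to 2324 in both, shows where a 50-base read fits both copies equally.
Csf2rb and Csf2rb2: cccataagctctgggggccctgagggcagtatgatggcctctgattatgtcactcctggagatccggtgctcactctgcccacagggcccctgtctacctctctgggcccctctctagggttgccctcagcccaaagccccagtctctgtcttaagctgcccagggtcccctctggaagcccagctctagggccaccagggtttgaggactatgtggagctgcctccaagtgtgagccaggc

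Without LPS, both beta chain genes were at the edge of detection. Csf2rb had at most 3 counts in 56 of 58 mice and was at 0 in 35 of them, and Csf2rb2 had at most 3 counts in 53 of 58. In CD, Csf2rb had 0, 2, 2, 5 and 3 counts and Csf2rb2 had 1, 3, 0, 1 and 3. The 23 depletion mice had at most 3 counts of Csf2rb and 4 of Csf2rb2, and the mean of both genes stayed under 3 counts in both groups, so no fold is given. Csf2rb averaged 0.064 CPM in depletion and 0.296 CPM in CD (edgeR FDR = 0.487, and 0.278 to 1 in the other fits of the counts), and Csf2rb2 averaged 0.199 and 0.2 CPM (FDR = 1).

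Under LPS, Csf2rb2 was above this edge in most mice. LPSCD mice had 8, 30 and 88 counts, or 1.03, 3.82 and 11.0 CPM, all above the highest level of 0.649 CPM among the 58 mice without LPS. Against CD the log2 fold change was 4.26 ± 1.01 (SE, edgeR FDR = 0.186), and its size depends on the prior count because CD is at or under 3 counts. Csf2rb2 was called without the suffix term (4.63, FDR = 0.00681), with all 16 groups in the fit (4.52, FDR = 3.38e-07), with no filter on low counts (FDR = 1.01e-12) and without LPSCD replicate 1 (4.74, FDR = 0.000601). It was not called by DESeq2 (4.34, FDR = 0.199) or in the re mice alone (4.25, FDR = 0.687), and it did not pass the filter of filterByExpr. The replicate block gave 2.85, a fold that compares only replicate 1 of each group. The 3 LPSCD mice were thus far apart, but all above CD.

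LPSREPOP mice had 8, 22, 11 and 1 counts of Csf2rb2 and REPOP60 mice had 3 each, so 3 of the 4 LPSREPOP mice lay above REPOP60 and replicate 4 lay below. As a log2 fold change this was 1.74 ± 0.57 (SE, edgeR FDR = 0.105), and without replicate 4 it was 2.12 with an FDR of 0.00721, which is a call. Against LPSCD it was -1.96 ± 0.67 (SE, FDR = 0.617), and the interaction was -2.52 ± 1.40 (SE, FDR = 0.804).

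Csf2rb had 6, 5 and 12 counts in LPSCD and 4, 7, 7 and 1 in LPSREPOP. All LPSCD mice lay above every mouse without LPS in CPM, while LPSREPOP replicates 1 and 4 did not. The log2 fold change for LPSCD against CD was 2.22 ± 0.87 (SE, edgeR FDR = 0.387), and for LPSREPOP against REPOP60, with 0, 3, 0 and 0 counts, it was 2.45 ± 0.85 (FDR = 0.137). Both sizes depend on the prior count, because CD and REPOP60 averaged under 3 counts. In the fit with REPOP60, Csf2rb passed the filter on low counts only through LPSREPOP. The summed count of both copies was not called in any comparison either.

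**Figure D5:**
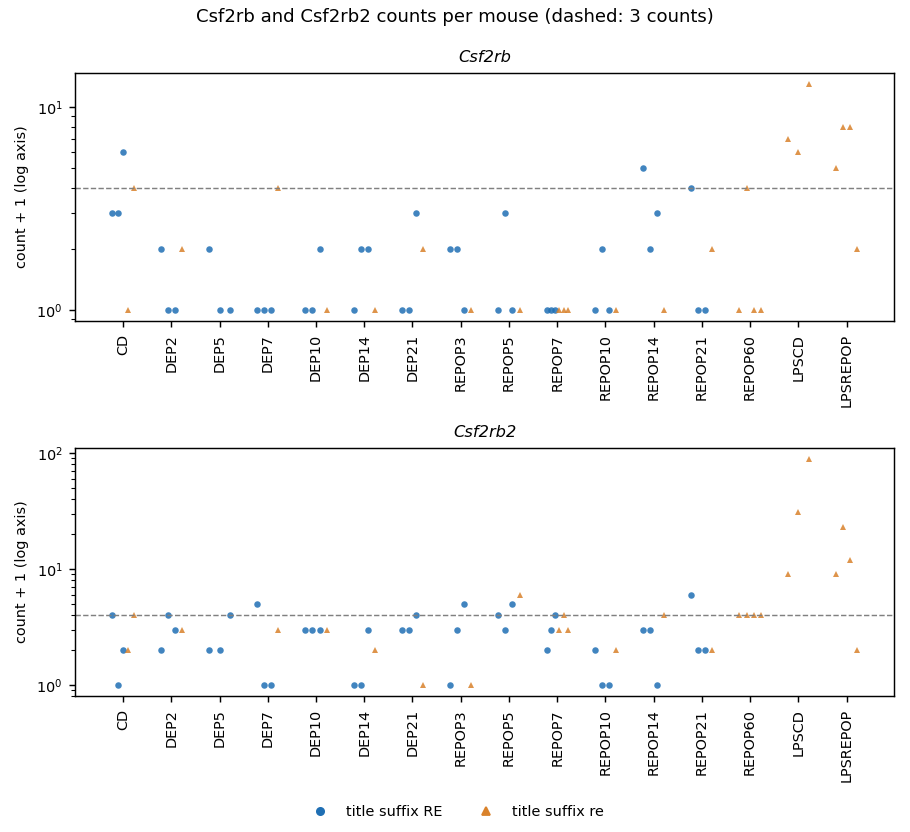
Counts of Csf2rb (upper panel) and Csf2rb2 (lower panel) in each of 65 mice by group, plotted as count + 1 on a log axis, with a dashed line at 3 counts and with circles for the title suffix RE and triangles for re. Most mice lie at or below the line, and the LPSCD mice lie above it in both panels, with up to 88 counts of Csf2rb2.

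A list of 50 further genes of these pathways was followed beside the members: 10 ligand genes such as Kitl and Flt3l, 8 receptor genes, 24 signalling genes such as Grb2, Jak2 and Stat3, and 8 transcription factor genes. Between 46 and 49 of them were tested in each comparison, and 1 gene was called in 1 comparison, in which 0.112% of all genes were called. This was Spi1, the gene of the transcription factor PU.1 that macrophages need, higher in late repopulation than in depletion by 3.57 ± 0.69 on the log2 scale (SE, edgeR FDR = 0.00983). The call is at the edge of the threshold: it was lost with no suffix term (FDR = 0.0107) and in DESeq2 (FDR = 0.0407), and Spi1 did not pass the filter of filterByExpr. The replicate block gave no usable estimate for Spi1 (SE of 6450).

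Spi1 had 2, 1, 3, 6 and 0 counts in CD and at most 2 in any depletion mouse. In late repopulation it had up to 6 counts, and in LPSCD it had 10, 7 and 17. These are near the limit of detection, and the fitted size depends on the prior count. All other ligand, receptor, signalling and transcription factor genes of the list stayed uncalled in every comparison in counts.

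The median log2 fold change of the 8 members was -0.14 in the depletion average, -0.17 in early and -0.18 in late repopulation, and 0.30 in LPSCD, beside -0.08, -0.06, -0.05 and 0.16 for the pathway list and medians within 0.012 of 0 for all genes tested. On the microglia list, 16 of 20 genes were called lower in the depletion average, 15 in early repopulation and 0 in late repopulation, beside 0.155%, 0.0992% and 0.0% of all genes called. For LPSCD 0 of these 20 were called, as were 0.0% of all genes, and for LPSREPOP against REPOP60 5 were called higher beside 0.437% of all genes.

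The genes most like each member were found by the Pearson correlation of log2(CPM + 1) over the 65 mice, after the mean of each suffix was subtracted, among 15875 genes with a mean of at least 1 CPM. All points share library and depth, so the values are a description. For Csf1r they were the complement genes C1qb and C1qa (r = 0.865 each), C1qc (r = 0.838), the cathepsin S gene Ctss (r = 0.837) and the lysosomal membrane gene Laptm5 (r = 0.815), all of the microglia list. Over the 58 mice without LPS these were between 0.71 and 0.775.

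For Csf1 the most alike genes were the cathepsin H gene Ctsh (r = 0.707), the chitinase-like gene Chil1 (r = 0.699), the matrix gene Sparc (r = 0.671), the ceruloplasmin gene Cp (r = 0.662) and the protease inhibitor gene Serpina3n (r = 0.659). Without the LPS mice these were between 0.184 and 0.414. For Kit they were Sh3gl2 (r = 0.618), the cone arrestin gene Arr3 (r = 0.617), Lrit2 (r = 0.616), Mturn (r = 0.611) and Cfap61 (r = 0.607), with 0.164 to 0.45 without LPS.

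For Il34 they were Isoc2a (r = 0.609), Pde6d (r = 0.554), Kcnip3 (r = 0.535), Sh3glb2 (r = 0.528) and Ywhaz (r = 0.52), which kept 0.555 to 0.596 without LPS. For Csf2ra they were Mbd6 (r = 0.688), Pdlim7 (r = 0.652), Kcnab2 (r = 0.647), Calm3 (r = 0.626) and Tspan7 (r = 0.626). Flt3 had the weakest, with Hapln1 (r = 0.442), Wdr5b (r = 0.43), Mrpl3 (r = 0.416), Nelfe (r = 0.394) and Atad3a (r = 0.393). None of these genes for members other than Csf1r was on the microglia list.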

How the data were processed

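The study sequenced total RNA of retinal homogenate, with poly-A selection per the labels (the study's methods name poly-A selection or removal of ribosomal RNA), as 50-base single-end reads on a BGISEQ-500. The authors aligned the reads to mm10 with HISAT2, and deposited raw counts per gene from HTSeq and FPKM from StringTie, with versions, annotation release and strand setting not given in the sources used here. Groups came from the labels, each replicate is a separate mouse, and the members and gene lists were chosen with earlier results of these data known.

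From the deposited counts, CPM used each library's total scaled by the TMM factor over all 65 libraries, and the 3-count limit used the plain total. Each comparison was fitted with edgeR 4.0.16 in R 4.3.3 (TMM, quasi-likelihood test) on its own groups, with genes counted at least 1 in a share of 0.5 of the mice of any group. The study's methods name an additive batch term without saying what the batches were, so the title suffix was taken as the term. The titles also carry a number, which was not used in any fit. Averages weight groups equally. The SE is the log2 fold change divided by the root of F. FPKM was tested with limma 3.58.1 on log2(FPKM + 0.1), since it is no count. The interaction used CD, LPSCD, REPOP60 and LPSREPOP. Benjamini-Hochberg adjustment covered all genes tested. The fits were tested on simulated counts.

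Comparisons with CD share its 5 mice, so they are not independent of each other. Whether the mice of a group overlapped CD was looked at for the members only, so no share over all genes stands beside it. Same-numbered mice correlated by over 0.1 for every pair in 8 of 16 comparisons, but in 0 of 16 once the suffix was fitted, so the numbers were not taken as pairs. With the suffix fitted, 16 of 61 single pairs were still over 0.1, and the values ran from -0.501 to 0.579. The alternatives were RLE scaling, DESeq2 1.42.0, no filter, filterByExpr, no suffix, RE mice only, all 16 groups in one fit, a replicate block, FPKM, the omission of 1 mouse at a time, and an FDR of 0.05 without a fold limit. Named genes are the members, called pathway genes, Cx3cr1, Tmem119, P2ry12 and the 5 most alike genes of each member with a mean of at least 1 CPM. Hmgxb3 was looked at after its overlap with Csf1r was seen, and it was named with its values known. Sequences, overlaps and coordinates come from the mm10 transcripts of the reference, where the longest reading frame was used. No mouse was left out of the main fits, and 1 FPKM row without a gene was not used.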

Additional observations from a re-analysis of the deposited data

Results flagged for a closer look

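In groups of 4 to 10 mice, 9 of 92 sets of values of 1 member in 1 group held a mouse that stood apart from the rest by Dixon's criterion, where chance gives about 1 in 20. Il34 had 4 of them: CD replicate 3 was lowest at 3.48 CPM beside 5.11 for the next, DEP7 replicate 1 was highest at 6.66 beside 4.74, REPOP5 replicate 4 was lowest at 4.48 beside 5.58, and REPOP21 replicate 1, the shallowest library with 38 counts of Il34, was highest at 7.28 beside 4.36. The DEP7 and REPOP21 mice named here were each the only re mouse of their group. Csf2ra had DEP10 replicate 1 at 61.4 CPM beside 46.1 and REPOP5 replicate 1 at 58.9 beside 43.9, each the re mouse of its group. Csf1 in REPOP60 replicate 3 was lowest at 4.02 CPM beside 7.85. Kit in DEP21 replicate 2 was lowest at 4.95 CPM beside 7.42. Csf2rb2 in REPOP21 replicate 2 was highest at 0.631 CPM (5 counts) beside 0.192. No cause of these was tested.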

How the results depend on the processing

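The main fits called 0 of the 8 members in every comparison. Limma on log2(FPKM + 0.1) called Csf1r in 6 of the depletion days, in 3 of the repopulation days, and once each (1) in the depletion average, the early average and late repopulation against depletion. At an FDR under 0.05 with no fold threshold Csf1r was called in 6 depletion days, 2 repopulation days, and 1 time each in the same averages and in LPSREPOP against REPOP60. For LPSCD against CD, no filter, no suffix term and all 16 groups in one fit each called 1 member, Csf2rb2, as did no filter (1) for LPSREPOP against REPOP60. Leaving out 1 mouse at a time gave 0 to 1 calls over the depletion days (Csf1r in DEP7 without CD replicate 3 or DEP7 replicate 1), 0 to 2 for LPSCD against CD (Csf1 and Csf2rb2 without LPSCD replicate 1) and 0 to 1 for LPSREPOP against REPOP60 (Csf2rb2 without LPSREPOP replicate 4). In each of these LPS cases the mouse left out had the fewest counts of the called gene in its group. The causes were not tested.

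The replicate block changed no call of a member, but for LPSCD and for REPOP60 against CD its fold compared only replicate 1 of each group. Among the other named genes with a fit under the block, it lost P2ry12 in late repopulation against depletion (FDR = 0.0255) and in REPOP7 (FDR = 0.235). It added P2ry12 in DEP5 (FDR = 0.000815) and REPOP3 (FDR = 0.000137). For Spi1 in late repopulation against depletion the block gave no usable estimate (SE of 6450). Of the other values, 186 of 190 counts of calls without 1 mouse and 81 of 96 under the other alternatives stayed at their main value. Since no member was called in the main fits, 1129 of 1134 and 616 of 632 single log2 fold changes simply stayed uncalled. A change of direction was counted only where the main FDR was under 0.05, and 0 were found there. Mean levels in CD moved by less than their SD in 23 of 24 cases, and Csf2ra had 68.0 CPM in the re mice of CD beside 55.3 in all 5. Counts of called genes over all genes moved more, between 14 and 61 for the depletion average, 10 and 46 for the early average, 0 and 14 for the late average, 13 and 38 for late repopulation against depletion, 0 and 237 for LPSCD against CD and 5 and 179 for LPSREPOP against REPOP60. For LPSREPOP against LPSCD they were 0 to 18 and for the interaction 0 to 33. By day they were 7 to 27 in DEP2, 7 to 24 in DEP5, 7 to 53 in DEP7, 8 to 38 in DEP10, 4 to 33 in DEP14 and 8 to 48 in DEP21, and 6 to 21 in REPOP3, 6 to 35 in REPOP5, 0 to 29 in REPOP7, 0 to 65 in REPOP10, 0 to 12 in REPOP14, 0 to 45 in REPOP21 and 0 to 10 in REPOP60. Depth limits Csf2rb, Csf2rb2 and Spi1, whose counts lie near 3, and the overlap with Hmgxb3 and the shared stretches of the beta chain genes limit what a count of Csf1r, Csf2rb or Csf2rb2 stands for.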
